A study of Mus musculus with 16 samples.

Results

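Chromatin accessibility was measured by ATAC-seq, in which a transposase cuts and tags open DNA, in 4 populations of CD4 single-positive (SP) cells sorted from mouse thymus. This account is of 365 of the 73442 peaks in the table, those that opened in a pair of steps along the regulatory T (Treg) cell path, first in the CD25-positive precursor and again in the Treg cell. They were chosen on the mean of both libraries of CNS4-sufficient mice by a rule with 3 clauses. The Treg value was at least 30, Treg + 1 was at least 2 times precursor + 1, and precursor + 1 was at least 2 times the larger of the values of both CD25-negative SP populations + 1. Values are normalised read counts, that is, reads in a peak divided by the size factor of the library. The rule did not read the libraries of CNS4-deficient mice, so the steps were tested there alone, and values of CNS4-sufficient mice are given as a description.

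The groups were Treg cells (Foxp3-GFP positive, CD4 positive, CD8 negative, TCRβ positive), precursors (preTreg, CD25 positive and Foxp3-GFP negative), cells labelled mSP (CD25 and GFP negative, TCRβ high, CD24 low) and cells labelled smSP (CD25 and GFP negative, TCRβ low, CD24 high). CNS4-deficient mice carried CNS4KO/Y Foxp3GFP/Y (KO) and CNS4-sufficient mice CNS4FL/Y Foxp3GFP/Y (FL). All 4 mice therefore carried the Foxp3-GFP reporter, on the C57BL/6J background, and the labels give no Cre and no age. Each genotype had 2 mice, each mouse gave 1 library of each population from 40000 to 50000 cells, and 16 libraries formed 8 groups of 2. The sort labels mSP and smSP are kept as names only, since Cd24a, the gene of the CD24 sort marker, summed over its 10 peaks to 566 in mSP and 295 in smSP of KO and to 579 in mSP and 321 in smSP of FL, against the sort on CD24. The 19 peaks of Il2ra, the gene of CD25, summed to a like level in preTreg and SP libraries, at 1666 in preTreg, 1756 in mSP and 1665 in smSP of KO and at 1387 in preTreg, 1499 in mSP and 1471 in smSP of FL. Of other precursor marker genes, Tnfrsf9 summed in KO to 1044 in preTreg, 473 in mSP and 532 in smSP. In the same order Tnfrsf18 had 1434, 1001 and 918, and Nr4a1 2674, 1995 and 2036. Each of these genes was also higher in preTreg than in both SP populations of FL. Tnfrsf4, with 1 peak, had 148, 115 and 155 in KO and 149, 110 and 115 in FL. The Foxp3 gene was open in Treg libraries and nearly closed elsewhere. For KO replicate 2 the titles and the descriptions of these 2 libraries named opposite populations. Titles were followed, and the choice of FL peaks does not depend on which SP label is which.

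Treg cells are CD4 T cells that restrain immune responses, and Foxp3 is the transcription factor that defines them. In the thymus they arise from SP cells with self-reactive receptors. Strong receptor signalling first brings up CD25, the alpha chain of the IL-2 receptor, and IL-2 signalling then leads to Foxp3. CNS4 is a conserved non-coding element upstream of the Foxp3 gene.

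RefSeq promoter windows (GRCm38.p6) run from 250 bases before to 50 after the gene start. On the chromosomes searched, which were not all, stepwise peaks covered part of such a window of their assigned gene at 6 genes. Windows of other genes were not counted. Of these 6 genes, 4 have a window shown for what their peaks did in KO mice. The Itgb8 and Hopx peaks were called higher at every step, the Cd80 peak at the Treg step and over smSP, and the Prr5l peak only at the first step. They are written 5′ to 3′ on the strand of the gene, with bases inside the peak in capitals, and lie at chr12:119238227-119238526 (minus strand), chr5:77115074-77115373 (minus), chr16:38458683-38458982 (plus) and chr2:101797658-101797957 (minus).
Itgb8: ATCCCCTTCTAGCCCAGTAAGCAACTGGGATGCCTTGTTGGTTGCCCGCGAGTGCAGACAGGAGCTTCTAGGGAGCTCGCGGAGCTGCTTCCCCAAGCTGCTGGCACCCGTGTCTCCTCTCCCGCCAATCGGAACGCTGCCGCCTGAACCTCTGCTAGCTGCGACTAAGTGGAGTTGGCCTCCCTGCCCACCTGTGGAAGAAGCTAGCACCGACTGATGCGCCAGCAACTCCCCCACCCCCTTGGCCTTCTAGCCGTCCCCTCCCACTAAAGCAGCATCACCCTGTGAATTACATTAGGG
Hopx: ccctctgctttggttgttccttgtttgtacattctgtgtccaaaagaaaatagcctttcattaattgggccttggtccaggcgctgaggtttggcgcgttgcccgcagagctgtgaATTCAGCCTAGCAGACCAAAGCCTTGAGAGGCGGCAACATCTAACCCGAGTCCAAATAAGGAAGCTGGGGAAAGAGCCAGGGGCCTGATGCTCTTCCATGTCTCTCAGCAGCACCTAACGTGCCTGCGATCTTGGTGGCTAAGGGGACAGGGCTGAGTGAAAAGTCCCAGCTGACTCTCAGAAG
Cd80: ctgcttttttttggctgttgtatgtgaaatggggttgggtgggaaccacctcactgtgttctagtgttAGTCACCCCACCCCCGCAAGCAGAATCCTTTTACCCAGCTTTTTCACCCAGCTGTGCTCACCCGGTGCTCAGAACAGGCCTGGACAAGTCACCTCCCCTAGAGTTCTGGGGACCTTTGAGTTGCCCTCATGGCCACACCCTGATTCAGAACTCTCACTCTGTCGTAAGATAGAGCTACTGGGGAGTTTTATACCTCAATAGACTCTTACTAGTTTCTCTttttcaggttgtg
Prr5l: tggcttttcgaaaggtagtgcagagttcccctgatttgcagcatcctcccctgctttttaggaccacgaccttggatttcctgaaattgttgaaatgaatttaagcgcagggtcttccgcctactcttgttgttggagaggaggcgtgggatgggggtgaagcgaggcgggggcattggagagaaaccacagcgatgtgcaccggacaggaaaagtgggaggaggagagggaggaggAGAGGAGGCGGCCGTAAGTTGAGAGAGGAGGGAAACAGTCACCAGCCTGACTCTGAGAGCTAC
Short motifs were searched on both strands of these windows. For ETS factors these were CCGGAA as well as AGGAAG, for RUNX factors TGTGGT, for AP-1 TGANTCA, for STAT factors TTCNNNGAA, for forkhead factors TGTTTAC, for TCF/LEF factors CTTTGAT, for E-box factors CAGGTG, for NFAT factors GGAAAA, for GATA factors AGATAA, for KLF and SP factors GGGCGG, for CTCF its core CCCTC, and for NF-kB its usual motif. CAGGTG was found in the part of the Itgb8 window inside the peak, a motif in 20.2% of the 32851 RefSeq promoter windows. Inside the Hopx peak AGGAAG was found, a motif in 35.4% of windows. Inside the Cd80 peak TGANTCA was found, a motif in 7.81% of windows. CCCTC, a motif in 66.0% of windows, lay inside the Itgb8, Cd80 and Prr5l peaks. No other searched motif lay in the shown part of these 4 peaks.

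The stepwise peaks were nearly closed in the SP libraries, at about 30% of their Treg level in precursors, and open in Treg cells, in both genotypes. In KO mice the median normalised read count over the 365 peaks was 9.40 and 8.69 in smSP, 6.88 and 7.18 in mSP, 24.0 and 23.0 in preTreg, and 88.8 and 78.7 in Treg for replicates 1 and 2. FL mice, which chose the peaks, had medians of 6.90 and 5.49 in smSP, 5.11 and 5.38 in mSP, 24.8 and 25.6 in preTreg, and 73.8 and 78.7 in Treg. The 4 Treg libraries were thus above the 4 preTreg libraries and these above the 8 SP libraries, with no overlap of medians, while over all peaks each population's median lay between 51.1 and 55.0 in either genotype. Levels differed widely among the peaks, with Treg means between 22.0 and 674 in KO and between 30.1 and 499 in FL. A typical peak rested on 73 to 114 reads in a Treg library, 25 to 29 in a preTreg library and 5 to 8 in an SP library, out of 5585827 to 11437401 reads in peaks per library. In SP libraries 18.6% to 32.1% of the stepwise peaks had at most 3 reads, so their SP level is not resolved at this depth.

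**Figure D1:**
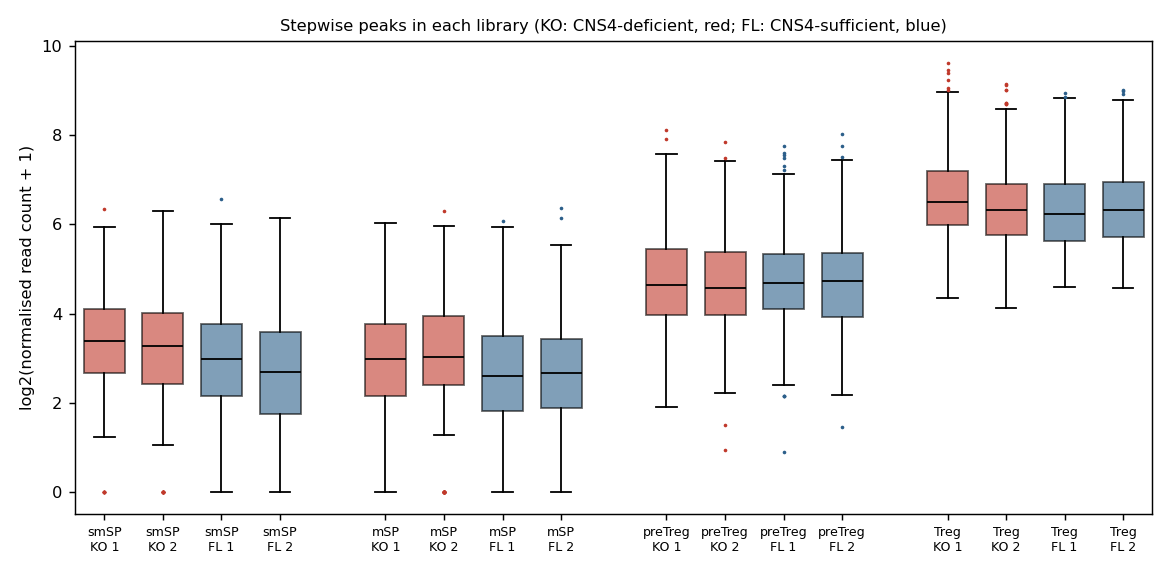
Boxes show log2(normalised read count + 1) of the 365 stepwise peaks in each of 16 libraries. Populations are ordered by label as smSP, mSP, preTreg and Treg, with KO (red) left of FL (blue). Boxes span quartiles with the median, and whiskers reach 1.5 times the box. Treg medians were 88.8 and 78.7 in KO and 73.8 and 78.7 in FL, and preTreg medians 24.0 and 23.0 in KO and 24.8 and 25.6 in FL.

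A middle level in a sorted precursor library can come from a part of its cells being open or from partial opening in each cell, which bulk data cannot tell apart. The 4 peaks in and at the end of the Foxp3 gene summed in preTreg to 1.67% and 1.67% of their Treg sum in KO and to 3.25% and 1.05% in FL. These preTreg sums were 7.39 and 6.43 in KO and 9.42 and 3.53 in FL, against 1.15 to 8.69 in the SP libraries of KO and 0 to 4.71 in those of FL, so they rest on a few reads. Over the stepwise peaks of KO mice, preTreg stood at 27.5% and 31.0% of the Treg sum. In FL it stood at 34.5% and 32.7%, a share that the rule bounds. The part of Treg cells within the precursor sort in the preTreg level was not tested.

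In KO mice each step was called at part of the stepwise peaks, and all 3 contrasts at 127 of the 365. The test was limma on log2(value + 1) in the 8 KO libraries, adjusted by Benjamini-Hochberg over the 73140 peaks that averaged 10 or more across the 16 libraries, with a call at 0.05; all 365 stepwise peaks passed that filter. At the Treg step, 254 were called higher in Treg than in preTreg and none lower, where 5.73% of all peaks tested were called higher. At the first step, 258 were called higher in preTreg than in mSP (19.0% of all peaks) and 199 higher than in smSP (12.8%), and none lower at either. All 3 contrasts were called at 0.632% of all peaks. The median log2 difference was 1.71 for Treg over preTreg, 1.64 for preTreg over mSP and 1.37 for preTreg over smSP, against medians of -0.01, 0.02 and 0.01 over all peaks. It was above 0 at 364, 363 and 355 of the 365 peaks. With edgeR's quasi-likelihood test on the recovered reads the counts were 349 (7.87% of all peaks), 266 (18.2%), 217 (12.7%) and, at all 3 contrasts, 189 (1.24%). DESeq2 on the same reads gave 254 at the Treg step, 213 over mSP, 156 over smSP and 104 at all 3. Of all 73140 peaks it called 2587, 9326, 5953 and 322.

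The number of calls rested on having both libraries of a group, which leaves 2 values a group. Without a Treg_KO or preTreg_KO library, calls at the Treg step and at all 3 contrasts fell among stepwise peaks and among all peaks tested. The median log2 difference of the stepwise peaks at the Treg step was 1.63 without Treg_KO replicate 1 and 1.81 without Treg_KO replicate 2. It was 1.72 without preTreg_KO replicate 1 and 1.71 without preTreg_KO replicate 2. Over smSP the median was 1.33 without preTreg_KO replicate 1 and 1.47 without preTreg_KO replicate 2. With the SP labels of KO replicate 2 taken from the descriptions, 75 stepwise peaks and 194 of all peaks tested were called at all 3 contrasts. The order of the libraries gives a count that needs no model. Both Treg_KO libraries lay above both preTreg_KO libraries, and these above all 4 SP libraries, at 287 of the 365 peaks, or 78.6%, where 5.27% of all peaks had that order. Within KO mouse 1 the order Treg, preTreg, SP held at 340 stepwise peaks and within KO mouse 2 at 329, where 17.2% and 14.9% of all peaks had it.

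By the pattern of calls, 112 stepwise peaks were called at 2 of the 3 contrasts, 106 at 1 and 20 at none. The Treg step was called without either first-step contrast at 61 peaks, and both first-step contrasts without the Treg step at 46.

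**Figure D2:**
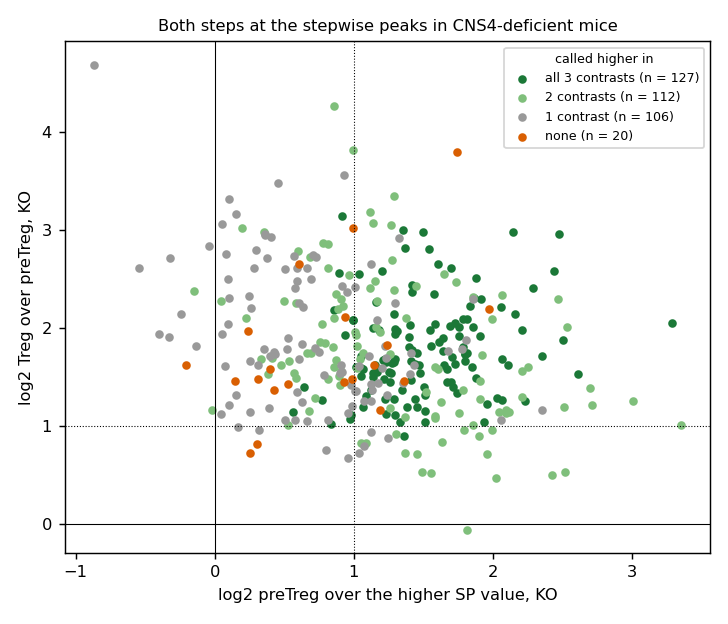
Each point is 1 of the 365 stepwise peaks in KO mice, with the log2 ratio of preTreg over the higher SP mean on the horizontal axis and that of Treg over preTreg on the vertical axis, coloured by the number of limma contrasts called; dotted lines mark a 2-fold step. Of the points, 127 (dark green) were called at all 3 contrasts and 20 (orange) at none.

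Itgb8, Itgav, Lrrc32 and Tgfb1 were set side by side by hand, not from a list, and no statement is made of them as a group. Tgfb1 encodes TGF-β1. The αvβ8 integrin, made of the products of Itgav and Itgb8, frees active TGF-β from its latent form, and the product of Lrrc32 (GARP) holds latent TGF-β on the Treg surface. Itgb8 had 6 stepwise peaks among its 12 peaks, all 6 in the gene body, and 4 of the 6 also met the rule on KO columns. The peak over its promoter (chr12:119238134-119238544) had 37.6 and 38.0 in smSP, 33.3 and 53.1 in mSP, 190.2 and 169 in preTreg, and 457 and 419 in Treg in KO mice. In FL mice it had 44.9 and 28.2 in smSP, 54.5 and 43.9 in mSP, 193 and 169 in preTreg, and 417 and 413 in Treg. Treg libraries stood above preTreg and these above SP in both genotypes, and KO and FL overlapped in every population but Treg, where both KO libraries were above both FL libraries. In KO, Treg was above preTreg by a log2 difference of 1.28 ± 0.20 (SE, adjusted p = 9.71e-05) (limma), preTreg above mSP by a log2 difference of 2.07 ± 0.20 (SE, adjusted p = 3.05e-08), and preTreg above smSP by a log2 difference of 2.22 ± 0.20 (SE, adjusted p = 3.33e-08). The other 5 Itgb8 peaks lay between 119204269 and 119207462 on chromosome 12. Their Treg means were between 60.5 and 190.1 in KO and between 53.9 and 229.7 in FL. All 5 were called at the Treg step and over mSP in KO, and 2 of the 5 over smSP.

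The peak chr2:83700591-83701146, 21 kb outside Itgav, was the second highest of all stepwise peaks in FL Treg. It had 36.3 and 59.8 in smSP, 42.5 and 56.0 in mSP, 240.0 and 178 in preTreg, and 782 and 565 in Treg in KO. FL mice had 26.5 and 46.3 in smSP, 50.2 and 69.0 in mSP, 214 and 259 in preTreg, and 452 and 507 in Treg. Both KO Treg libraries were above both FL Treg libraries, whereas the preTreg libraries overlapped. All 3 KO contrasts were called, with log2 differences of 1.68 for Treg over preTreg, 2.06 over mSP and 2.13 over smSP.

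Tgfb1 had 1 stepwise peak among 11 (chr7:25707565-25707918, 2.5 kb outside the gene), chosen after its values were seen. It had 24.2 and 44.6 in smSP, 39.0 and 30.1 in mSP, 63.7 and 73.5 in preTreg, and 158 and 132 in Treg in KO. FL mice had 23.0 and 18.0 in smSP, 13.6 and 33.2 in mSP, 69.4 and 63.5 in preTreg, and 177 and 154 in Treg. KO and FL overlapped in Treg, preTreg and mSP, and both KO libraries were above both FL libraries in smSP. All 3 contrasts were called in KO, the Treg step by a log2 difference of 1.06 ± 0.27 (SE, adjusted p = 0.00783).

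Lrrc32 had 3 stepwise peaks among 15. At chr7:98491725-98492052, in the gene body, KO mice had 13.4 and 12.0 in smSP, 9.18 and 4.31 in mSP, 15.7 and 30.3 in preTreg, and 196 and 151 in Treg. FL values were 5.75 and 4.71 in smSP, 2.55 and 5.38 in mSP, 10.3 and 16.8 in preTreg, and 146 and 139 in Treg. Here the Treg step was the large one, with Treg above preTreg by a log2 difference of 2.92 ± 0.40 (SE, adjusted p = 1.43e-05) in KO, while preTreg over smSP gave a log2 difference of 0.74 ± 0.40 (SE, adjusted p = 0.182). The peak at chr7:98580355-98580882, given to Emsy by position alone and 6.2 kb outside it, had 13.4 and 6.52 in smSP, 5.74 and 4.31 in mSP, 15.7 and 22.1 in preTreg, and 424 and 339 in Treg in KO. In FL it stood at 13.8 and 3.92 in smSP, 11.9 and 6.27 in mSP, 35.1 and 38.8 in preTreg, and 208 and 181 in Treg. Its Treg step in KO was a log2 difference of 4.28 ± 0.38 (SE, adjusted p = 2.55e-08), and its KO Treg values were above, its KO preTreg values below, those of FL.

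The Treg signature list (genes of Treg surface receptors and factors) held 16 stepwise peaks of the 382 peaks at its genes, or 4.19%, beside 0.497% of all peaks. In KO, 15 of the 16 were called at the Treg step, 15 over mSP, 8 over smSP and 7 at all 3 contrasts, with median log2 differences of 1.63, 1.78 and 1.20. Besides Itgb8 and Lrrc32 its genes were Ctla4, Ikzf2, Nrp1, Cd83 and Il2rb. Ctla4 encodes the inhibitory receptor that binds CD80 and CD86. Its peak chr1:60912198-60912822, in the gene body, had 40.3 and 28.3 in smSP, 9.18 and 25.8 in mSP, 102 and 92.8 in preTreg, and 325 and 244 in Treg in KO. FL values were 28.8 and 22.8 in smSP, 12.8 and 11.7 in mSP, 83.1 and 83.8 in preTreg, and 216 and 250.5 in Treg. Each Ctla4 step was without overlap in either genotype, and in KO Treg was above preTreg by a log2 difference of 1.53 ± 0.35 (SE, adjusted p = 0.00869) and preTreg above smSP by a log2 difference of 1.497 ± 0.35 (SE, adjusted p = 0.00523). A narrower Ctla4 peak at chr1:60910673-60910808 was called at the Treg step in KO (a log2 difference of 1.18 ± 0.34 (SE, adjusted p = 0.0198)) but stood at 32.3 and 23.0 in preTreg against 32.2 and 23.9 in smSP.

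Ikzf2 encodes Helios, a transcription factor abundant in thymic Treg cells. At chr1:69680546-69680819 it had 28.2 and 21.7 in smSP, 21.8 and 33.0 in mSP, 83.1 and 68.9 in preTreg, and 195 and 177 in Treg in KO. FL mice had 19.6 and 20.4 in smSP, 32.3 and 19.7 in mSP, 76.2 and 87.4 in preTreg, and 181 and 151 in Treg. All 3 contrasts were called in KO. Nrp1 encodes neuropilin-1, a surface protein of thymic Treg cells, and its peak chr8:128351214-128351577 lay 7 kb outside the gene with 9.40 and 3.26 in smSP, 3.44 and 5.74 in mSP, 16.6 and 20.2 in preTreg, and 85.1 and 71.0 in Treg in KO. FL values were 9.21 and 10.2 in smSP, 2.55 and 3.59 in mSP, 27.4 and 39.7 in preTreg, and 119 and 129 in Treg. Both KO libraries were below both FL libraries in Treg and in preTreg, while all 3 steps were still called in KO, the Treg step by a log2 difference of 2.03 ± 0.51 (SE, adjusted p = 0.00848). Il2rb encodes the beta chain of the IL-2 receptor. Its peak chr15:78478993-78479198, 58 bases outside the gene, had 63.2 and 47.0 in Treg and 25.9 and 23.0 in preTreg of KO mice. Only the first step was called there, by a log2 difference of 2.74 ± 0.57 (SE, adjusted p = 0.000434) over mSP. The Cd83 peak (chr13:43767749-43768000) had 99.7 and 61.4 in Treg of KO and 107 and 109.7 in Treg of FL mice, with the Treg step in KO at a log2 difference of 1.49 ± 0.38 (SE, adjusted p = 0.00847).

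Cd80 encodes a ligand of CD28 and CTLA-4, mostly known from antigen-presenting cells. Its promoter peak (chr16:38458751-38458969) had 8.06 and 3.26 in smSP, 4.59 and 10.0 in mSP, 21.2 and 12.9 in preTreg, and 185 and 140.2 in Treg in KO. In FL it had 6.90 and 5.49 in smSP, 12.8 and 0.896 in mSP, 28.3 and 28.2 in preTreg, and 80.9 and 99.4 in Treg. Both KO libraries were above both FL libraries in Treg and below both in preTreg. In KO the Treg step was a log2 difference of 3.21 ± 0.47 (SE, adjusted p = 3.56e-05), and preTreg over mSP was a log2 difference of 1.16 ± 0.47 (SE, adjusted p = 0.0528).

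**Figure D3:**
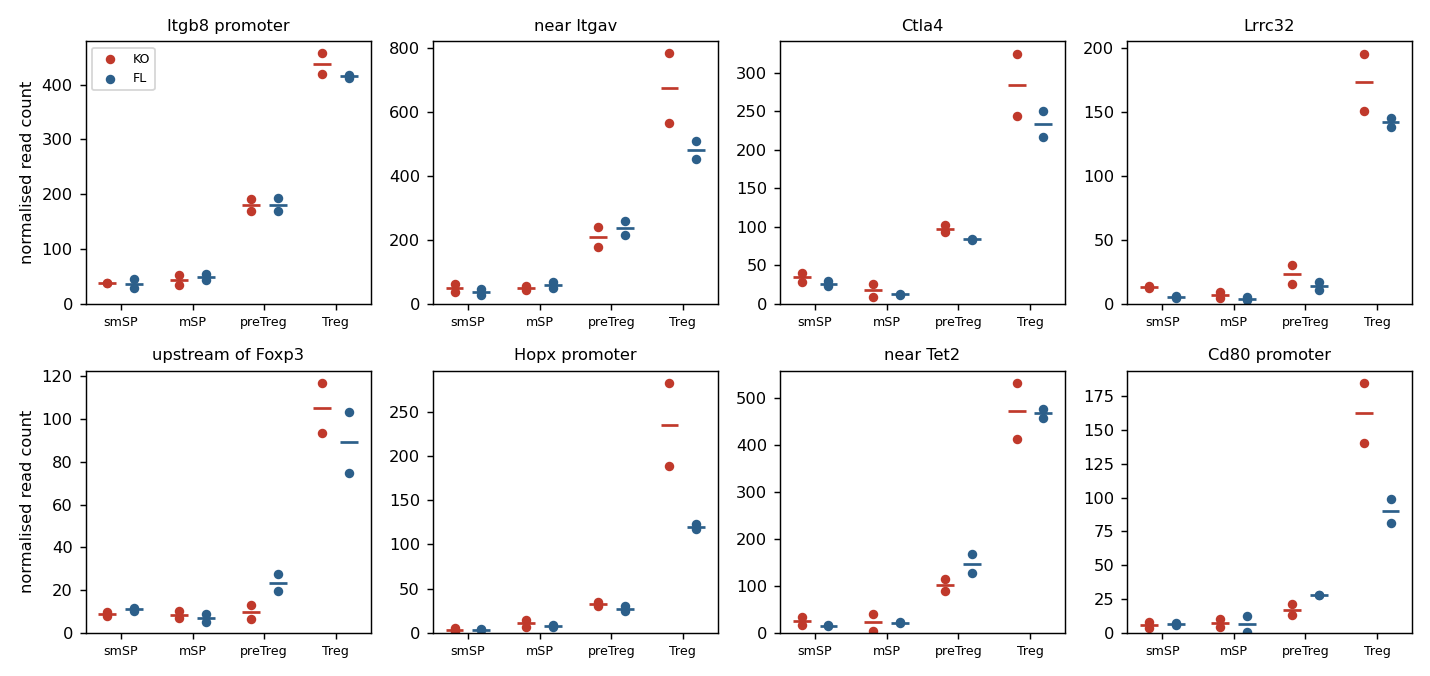
Normalised read count in each library (points) and group mean (bars) at 8 stepwise peaks by population, with KO (red) left of FL (blue). At the Itgb8 promoter Treg libraries were at 457 and 419 in KO and 417 and 413 in FL, and upstream of Foxp3 preTreg libraries were at 6.46 and 12.9 in KO and 27.4 and 19.4 in FL.

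Of the 11 peaks between 7566433 and 7595548 on chromosome X, around Foxp3, 1 was stepwise. It lay at chrX:7567524-7567768, within the gene body of Ppp1r3f and 12.0 kb before the first base of the Foxp3 gene. The peak deleted in KO mice, chrX:7570739-7571052, lay 3.25 kb from it, had 0 reads in all 8 KO libraries and was not stepwise. The stepwise peak had 8.06 and 9.78 in smSP, 6.88 and 10.0 in mSP, 6.46 and 12.9 in preTreg, and 93.6 and 117 in Treg in KO. FL mice had 10.4 and 11.8 in smSP, 5.11 and 8.96 in mSP, 27.4 and 19.4 in preTreg, and 74.8 and 104 in Treg. In FL preTreg it was above all 4 FL SP libraries, whereas in KO preTreg 1 library was below and the other above all 4 KO SP libraries. KO and FL overlapped in Treg. In KO, the Treg step was a log2 difference of 3.38 ± 0.46 (SE, adjusted p = 1.22e-05), preTreg over mSP was a log2 difference of 0.12 ± 0.46 (SE, adjusted p = 0.855) and preTreg over smSP was a log2 difference of 0.04 ± 0.46 (SE, adjusted p = 0.96) (limma). The first step was thus not called in KO, and since FL columns chose the peak its difference between genotypes has no test here. This peak was chosen after its values were seen.

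Receptor signalling genes are the ones that the first step of Treg development is known to engage. The list of T cell receptor and co-stimulation genes held 9 stepwise peaks of its 628 (1.43%), of which 6 were called at the Treg step, 7 over mSP, 6 over smSP and 4 at all 3 contrasts in KO (median log2 differences 1.5, 1.64 and 1.14). Dusp4, a phosphatase that switches off MAP kinases, had 6 of them among 35 peaks. Its strongest peak in the gene body (chr8:34808808-34809152) had 80.6 and 73.9 in smSP, 37.9 and 38.8 in mSP, 103 and 126 in preTreg, and 294 and 214 in Treg in KO. FL values were 63.3 and 49.4 in smSP, 51.9 and 44.8 in mSP, 118 and 139 in preTreg, and 280.2 and 297 in Treg. The peak was already open in SP cells, and preTreg over smSP in KO was a log2 difference of 0.56 ± 0.20 (SE, adjusted p = 0.043). The peak 48 kb outside Dusp4 (chr8:34759071-34759419) had 9.40 and 25.0 in smSP, 13.8 and 17.2 in mSP, 62.8 and 57.0 in preTreg, and 178 and 127 in Treg in KO. FL mice had 17.3 and 15.7 in smSP, 17.9 and 17.0 in mSP, 42.0 and 34.4 in preTreg, and 192 and 204 in Treg. Both KO libraries were above both FL libraries in preTreg and below both in Treg. Tox, a factor of CD4 lineage choice in the thymus, had 1 stepwise peak (chr4:6859829-6860056), with 17.5 and 21.7 in smSP, 9.18 and 23.0 in mSP, 40.6 and 47.8 in preTreg, and 122 and 132 in Treg in KO. It was called at all 3 contrasts, the Treg step by a log2 difference of 1.5 ± 0.34 (SE, adjusted p = 0.00322). The peaks near Jun and Myc, early response transcription factors, were at 122 and 61.4 (Jun) and at 63.2 and 48.0 (Myc) in KO Treg. Jun was called at the first step and not at the Treg step (a log2 difference of 2.02 ± 0.70 (SE, adjusted p = 0.0654)), while edgeR called the Jun Treg step at an adjusted p of 2.43e-05.

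NF-kB factors carry receptor and co-stimulatory signals to the genome, and c-Rel, the product of Rel, is needed for thymic Treg cells. The NF-kB list held 3 stepwise peaks of 251 (1.20%), all 3 called at the Treg step and over mSP in KO and 2 over smSP. The Rel peak (chr11:23778745-23778960, 7.8 kb outside the gene) had 8.06 and 21.7 in smSP, 8.03 and 10.0 in mSP, 36.0 and 36.8 in preTreg, and 131 and 101 in Treg in KO. FL mice had 12.7 and 9.41 in smSP, 9.36 and 8.07 in mSP, 37.7 and 32.7 in preTreg, and 131 and 169 in Treg. The 4 preTreg libraries lay between 32.7 and 37.7, and both KO Treg libraries were below both FL ones. In KO, Treg was above preTreg by a log2 difference of 1.63 ± 0.38 (SE, adjusted p = 0.00465) and preTreg above smSP by a log2 difference of 1.38 ± 0.38 (SE, adjusted p = 0.0089). The Nfkbiz peak (chr16:55837266-55837421), in the gene of the nuclear IκB protein IκBζ, had 22.8 and 34.8 in smSP, 19.5 and 27.3 in mSP, 68.3 and 56.1 in preTreg, and 163 and 147 in Treg in KO. FL values were 24.2 and 31.4 in smSP, 28.9 and 27.8 in mSP, 69.4 and 62.7 in preTreg, and 147 and 172 in Treg. KO and FL overlapped in smSP, preTreg and Treg, and both KO libraries were below both FL libraries in mSP. The Nfkb1 peak (chr3:135677196-135677398) had 24.0 and 41.4 in preTreg of KO against 21.5 and 17.4 in smSP, with a log2 difference of 0.68 ± 0.40 (SE, adjusted p = 0.222).

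Of IL-2 and STAT5 target genes, 3 of 248 peaks were stepwise (1.21%), all 3 called over mSP in KO, 1 at the Treg step and 1 over smSP. Besides Il2rb these were a pair in Bcl2, the survival factor. The stronger (chr1:106569997-106570210) had 41.6 and 36.9 in smSP, 27.5 and 27.3 in mSP, 60.9 and 53.3 in preTreg, and 128 and 105 in Treg in KO. In FL it had 26.5 and 24.3 in smSP, 14.5 and 17.0 in mSP, 58.2 and 58.2 in preTreg, and 114 and 129 in Treg. Both KO libraries were above both FL libraries in smSP and in mSP, and preTreg over smSP in KO was a log2 difference of 0.53 ± 0.24 (SE, adjusted p = 0.115).

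The list of chromatin and lineage factors held 3 stepwise peaks of 789 (0.380%), all 3 called at every contrast in KO. They were at Klf6, Foxp1 and Tox. The Klf6 peak (chr13:5890073-5890362, 20 kb outside the gene of this zinc finger factor) had 10.7 and 19.6 in smSP, 9.18 and 4.31 in mSP, 45.2 and 66.2 in preTreg, and 270.0 and 210.2 in Treg in KO. FL mice had 17.3 and 12.6 in smSP, 7.66 and 17.0 in mSP, 50.5 and 46.8 in preTreg, and 164 and 156 in Treg. Both KO Treg libraries were above both FL Treg libraries, and preTreg libraries overlapped. The Treg step in KO was a log2 difference of 2.10 ± 0.35 (SE, adjusted p = 0.000185). The peak in Foxp1, a forkhead factor of T cell quiescence (chr6:99340986-99341177), had 80.3 and 128 in Treg and 41.5 and 29.4 in preTreg of KO, against 3.26 to 6.72 in the 4 SP libraries.

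Genes of effector Treg cells held 5 stepwise peaks of 283 (1.77%), with 3 called at the Treg step, 2 over mSP, 4 over smSP and 1 at all 3 in KO. Of these, 3 lay at Ccr6, the receptor of the chemokine CCL20, which has 4 peaks in all. The one 2.1 kb outside it (chr17:8233661-8233920) had 9.40 and 5.43 in smSP, 9.18 and 5.74 in mSP, 25.9 and 30.3 in preTreg, and 117 and 129.6 in Treg in KO. FL values were 4.60 and 6.28 in smSP, 3.40 and 1.79 in mSP, 24.8 and 31.8 in preTreg, and 62.7 and 74.5 in Treg. The KO Treg libraries were above the FL ones, the preTreg libraries overlapped, and the Treg step in KO was a log2 difference of 2.10 ± 0.40 (SE, adjusted p = 0.00068). Rora, the gene of the nuclear receptor RORα, had a peak at chr9:68969489-68969736 with 1.34 and 7.61 in smSP, 12.6 and 4.31 in mSP, 20.3 and 8.27 in preTreg, and 80.3 and 90.2 in Treg in KO. FL mice had 9.21 and 7.06 in smSP, 6.81 and 11.7 in mSP, 31.7 and 23.8 in preTreg, and 111 and 133 in Treg. Here both KO libraries were below both FL libraries in Treg and in preTreg, and preTreg over mSP in KO was a log2 difference of 0.73 ± 0.62 (SE, adjusted p = 0.372). The peak 15 kb outside Areg, the gene of the growth factor amphiregulin (chr5:91124256-91124457), had 75.4 and 48.0 in Treg and 30.5 and 15.6 in preTreg of KO, with 0 to 5.43 in SP. Only the first step was called there, and the Treg step was a log2 difference of 1.42 ± 0.86 (SE, adjusted p = 0.356).

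Several of the genes with the most stepwise peaks are in none of these lists. Samsn1, an adaptor that dampens lymphocyte receptor signals, had 5 of its 25 peaks in the set. The strongest (chr16:75874548-75874806) had 20.2 and 27.2 in smSP, 33.3 and 25.8 in mSP, 66.5 and 57.9 in preTreg, and 206 and 206 in Treg in KO. FL mice had 13.8 and 7.84 in smSP, 22.1 and 14.3 in mSP, 42.0 and 59.1 in preTreg, and 218 and 249 in Treg. All 3 contrasts were called at it, and the Treg step was a log2 difference of 1.72 ± 0.25 (SE, adjusted p = 2.72e-05). Hdac9, a class IIa histone deacetylase, had 5 of 20, with Treg means between 48.5 and 115 in KO and between 30.6 and 117 in FL. Atg7, an enzyme of autophagy, had 4 of 13, with Treg means between 46.0 and 107 in KO and between 36.6 and 93.8 in FL. The 3 peaks in Abhd6, a lipid hydrolase, lay side by side between 8044829 and 8045842 on chromosome 14. The last of them (chr14:8045560-8045842) had 4.03 and 15.2 in smSP, 11.5 and 11.5 in mSP, 42.5 and 31.2 in preTreg, and 275 and 199 in Treg in KO. In FL it had 6.90 and 0.784 in smSP, 11.9 and 8.96 in mSP, 24.8 and 35.3 in preTreg, and 175 and 164 in Treg. It was called at all 3 contrasts, the Treg step by a log2 difference of 2.65 ± 0.41 (SE, adjusted p = 0.000143).

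Hopx, the gene of a small homeodomain protein, had 3 stepwise peaks side by side at the start of the gene. The peak over its promoter (chr5:77114781-77115257) had 5.37 and 1.09 in smSP, 6.88 and 14.4 in mSP, 30.5 and 34.9 in preTreg, and 282 and 188 in Treg in KO. FL values were 3.45 and 3.92 in smSP, 9.36 and 6.27 in mSP, 30.0 and 24.7 in preTreg, and 117 and 123 in Treg. Both KO Treg libraries were above both FL Treg libraries, as they were at all 3 Hopx peaks. That placing held at 37.0% of the stepwise peaks and at 23.2% of all peaks. In KO all 3 contrasts were called at the promoter, the Treg step by a log2 difference of 2.78 ± 0.46 (SE, adjusted p = 0.000216) and preTreg over smSP by a log2 difference of 3.20 ± 0.46 (SE, adjusted p = 2.21e-05). At the other 2 Hopx peaks only the Treg step was called. The 3 stepwise peaks of Sh3bgrl2, which encodes a small SH3-binding protein, also had both KO Treg libraries above both FL ones. The strongest (chr9:83564139-83564518) had 29.6 and 33.7 in smSP, 47.0 and 37.3 in mSP, 120.0 and 89.2 in preTreg, and 516 and 415 in Treg in KO. FL values were 39.1 and 34.5 in smSP, 46.0 and 22.4 in mSP, 104 and 96.2 in preTreg, and 239 and 239 in Treg. Its preTreg libraries overlapped between genotypes, and the Treg step in KO was a log2 difference of 2.15 ± 0.21 (SE, adjusted p = 1.39e-07). The Sh3bgrl2 and Cd80 peaks and 2 of the Hopx peaks were chosen after their values were seen.

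Prr5l encodes a protein that binds the kinase complex mTORC2. At the peak over its promoter (chr2:101797557-101797720) the Treg step was not called in KO, with 16.1 and 9.78 in smSP, 2.29 and 1.44 in mSP, 41.5 and 54.2 in preTreg, and 38.9 and 52.8 in Treg. FL mice had 4.60 and 3.14 in smSP, 16.2 and 10.8 in mSP, 36.8 and 23.8 in preTreg, and 64.7 and 58.7 in Treg, which put it just inside the rule. The KO Treg and preTreg libraries overlapped, the Treg step was a log2 difference of -0.06 ± 0.46 (SE, adjusted p = 0.962), and preTreg over mSP was a log2 difference of 4.10 ± 0.46 (SE, adjusted p = 1.96e-07). Of the 365 peaks it was the 1 with a Treg step below 0 in KO.

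The stepwise peak with the highest FL Treg level was at chr2:76374586-76374992, in the gene body of Rbm45, which encodes an RNA-binding protein. It had 47.0 and 47.8 in smSP, 12.6 and 21.5 in mSP, 151 and 129.6 in preTreg, and 599.6 and 513 in Treg in KO. FL mice had 18.4 and 36.9 in smSP, 19.6 and 26.9 in mSP, 95.9 and 68.0 in preTreg, and 487 and 511 in Treg. All 3 contrasts were called in KO, the Treg step by a log2 difference of 1.98 ± 0.22 (SE, adjusted p = 1e-06). The highest preTreg level in KO was at chr13:110563973-110564382, with no protein-coding gene within 50 kb. There KO mice had 47.0 and 72.8 in smSP, 53.9 and 43.1 in mSP, 277 and 229.8 in preTreg, and 669 and 553 in Treg. FL values were 94.4 and 69.8 in smSP, 60.4 and 81.6 in mSP, 187 and 215 in preTreg, and 399.5 and 413 in Treg. Both KO libraries were above both FL libraries in preTreg as in Treg. The other stepwise peaks with the highest FL Treg levels were assigned to Pter, Dscam, Scyl2 and Ube2e3 by position, and each was called at all 3 contrasts in KO.

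Of the 20 stepwise peaks called at no contrast in KO, 2 were among those with the highest FL Treg levels. The first lay 26 kb outside Tet2, which encodes an enzyme that oxidises methylcytosine (chr3:133437049-133437328), with 16.1 and 34.8 in smSP, 4.59 and 40.2 in mSP, 115 and 90.1 in preTreg, and 533 and 414 in Treg in KO. FL mice had 13.8 and 15.7 in smSP, 20.4 and 22.4 in mSP, 127 and 169 in preTreg, and 458 and 478 in Treg. Its Treg step was a log2 difference of 2.19 ± 1.06 (SE, adjusted p = 0.331) by limma and had an adjusted p of 0.0117 by edgeR. The next lay 24 kb outside Snx13, a sorting nexin (chr12:35021261-35021700), with 17.5 and 6.52 in smSP, 0 and 18.7 in mSP, 26.8 and 57.9 in preTreg, and 694 and 509.7 in Treg in KO. FL values were 9.21 and 3.14 in smSP, 5.96 and 9.86 in mSP, 43.7 and 45.9 in preTreg, and 279 and 366 in Treg. The Treg step was a log2 difference of 3.88 ± 1.59 (SE, adjusted p = 0.254) by limma, and edgeR's adjusted p was 0.00736. At both peaks the Treg libraries of KO were above its preTreg libraries without overlap, and the 2 mSP libraries of KO stood far apart, which enters the spread that limma shares over the 4 groups.

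Of the lists of other stages and cell types, immature thymocyte genes had 0 stepwise peaks of 202, and mature thymocyte and egress genes 1 of 186 (0.538%), in Cd44. Innate-like T and NK cell genes had 0 of 90, myeloid and dendritic genes 0 of 18, and erythroid and stromal genes 0 of 21. Summed over its 90 peaks, the innate-like T and NK list (12 of 14 genes with a peak) stood at 7588 to 8911 in the 8 SP libraries, 6714 and 6971 in preTreg of KO, 6427 and 6443 in preTreg of FL, 5402 and 5534 in Treg of KO, and 5616 and 5834 in Treg of FL. Within it Nkg7, a gene of cytotoxic granules, had 211 and 184 in preTreg of KO and 159 and 170.3 in preTreg of FL, against 14.3 to 25.3 in the SP libraries. In Treg it had 74.2 and 49.0 in KO and 41.5 and 44.9 in FL. Nkg7 was thus high in the precursor libraries, but none of its peaks was stepwise. Zbtb16 and Eomes, also markers of innate-like T cells, did not share this rise. Zbtb16 averaged in KO 73.3 in preTreg, 162 in mSP and 101 in smSP, and in FL 69.2, 175 and 87.7. In the same order Eomes had 219, 251 and 215 in KO and 265, 246 and 245 in FL. The part of innate-like cells in the first step was not tested. The Cd44 peak (chr2:102853355-102853521) had 62.0 and 64.3 in Treg and 44.3 and 26.7 in preTreg of KO and was called at no contrast (Treg step a log2 difference of 0.86 ± 0.32 (SE, adjusted p = 0.0873)). B cell genes had 1 of 8, in Blk, a Src family kinase. The Blk peak (chr14:63383434-63383658) had 5.37 and 6.52 in smSP, 0 and 7.18 in mSP, 25.9 and 18.4 in preTreg, and 139.9 and 114 in Treg in KO. In FL it had 2.30 and 0 in smSP, 0 and 0.896 in mSP, 32.5 and 22.9 in preTreg, and 56.6 and 86.9 in Treg. The B cell list, 8 peaks at 4 genes with Blk among them, summed to 559 and 511 in Treg of KO and 369 and 409 in Treg of FL, and to 283 and 265 in preTreg of KO and 219 and 259 in preTreg of FL. In the SP libraries the list summed to 375 to 452, above preTreg. Of its genes, Cd79a, a chain of the B cell receptor, had 97.3 and 97.0 in Treg of KO and 60.7 and 58.7 in Treg of FL. In SP libraries Cd79a stood between 50.2 and 93.5. Pax5, a defining B cell factor, had 41.3 and 41.3 in Treg of KO and 39.4 and 27.6 in Treg of FL, against 24.2 to 41.7 in SP libraries. The part of B cells in the Blk values was not tested.

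When the same rule was read on the KO columns, 559 peaks met it, or 0.761% of the table, and 201 were in both lists. These shared peaks are 55.1% of the peaks chosen in FL and 36.0% of those chosen in KO. Of the 164 stepwise peaks that did not meet it in KO, 143 fell short at the first step, 27 at the Treg step and 5 at the level, some at more than 1. The step heights differed in the same direction whichever genotype chose the peaks. Over the peaks chosen in FL, the median log2 height of the first step within a mouse was 1.17 and 1.06 in KO against 1.49 and 1.55 in FL, and that of the Treg step 1.83 and 1.63 in KO against 1.49 and 1.58 in FL. Over the peaks chosen in KO, the first step was 1.59 and 1.46 in KO against 1.76 and 1.97 in FL, and the Treg step 1.57 and 1.40 in KO against 0.97 and 0.99 in FL. In each list both KO mice thus had the lower first step and the higher Treg step. Over all 73442 peaks the order was the same at a smaller size, with the first step at -0.16 and -0.14 in KO against -0.14 and -0.12 in FL, and the Treg step at -0.01 and -0.01 in KO against -0.03 and -0.03 in FL. Another 2 sets were taken on FL columns, both with Treg of at least 30. The Treg-step set met only the Treg-step clause of the 2 fold clauses, and the precursor-step set only the first-step clause. FL medians of the Treg-step set were 38.8 in mSP, 36.3 in smSP, 21.5 in preTreg and 59.9 in Treg, lowest in preTreg. There the order was the other way round, with a Treg step of group means of 0.92 in KO and 1.36 in FL. The precursor-step set had the order of the stepwise peaks. Its first step was 1.43 in KO and 1.56 in FL, and its Treg step 0.17 in KO and -0.41 in FL. A step height was not tested between genotypes, because the columns of 1 genotype chose each list. The first step is taken over the larger of 2 low SP values. SP libraries of KO held 5585827 to 7222050 reads in peaks and those of FL 6848693 to 9968196. The part of this depth difference in the first step was not tested.

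**Figure D4:**
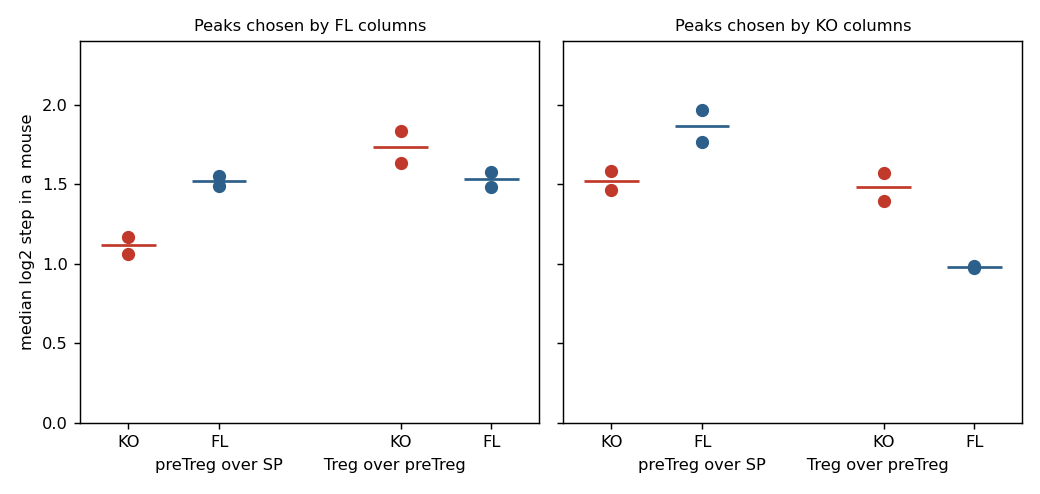
Median log2 height of each step in each mouse (points, 2 mice a genotype; bars are means) over the 365 peaks chosen by FL columns (left) and the 559 chosen by KO columns (right), with KO (red) left of FL (blue). In both panels the first step was lower and the Treg step higher in KO than in FL.

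The level at the stepwise peaks in KO relative to FL differed by population. The median log2 difference, KO minus FL, was 0.47 in smSP, 0.32 in mSP, -0.02 in preTreg and 0.15 in Treg, against at most 0.01 in size over all peaks. In Treg both KO libraries were above both FL libraries at 135 stepwise peaks and below both at 66, where 23.2% and 22.1% of all peaks were so placed. In smSP the counts were 125 above and 25 below, where all peaks had 19.6% and 18.8%. In mSP they were 97 above and 23 below, where all peaks had 20.2% and 19.3%. In preTreg they were 56 above and 76 below, where all peaks had 21.4% and 20.4%. The Treg median was 0.02 without Treg_KO replicate 1 and 0.24 without Treg_KO replicate 2, and the FL columns are low in SP at these peaks by the rule itself. Other sets chosen on FL columns differed more in Treg, with a median of 0.39 over the precursor-step set and -0.31 over the Treg-step set. In preTreg these sets stood at -0.16 and 0.22. Over peaks chosen in KO the differences were 0.18 in smSP, 0.12 in mSP, -0.15 in preTreg and 0.44 in Treg. These differences are a description with no test.

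Of stepwise peaks with the largest KO minus FL difference in Treg, that nearest to Ceacam15 (chr7:16644339-16644616) came first, with 16.1 and 6.52 in smSP, 3.44 and 2.87 in mSP, 12.9 and 16.5 in preTreg, and 152 and 93.1 in Treg in KO. FL mice had 5.75 and 0.784 in smSP, 0.851 and 6.27 in mSP, 10.3 and 9.71 in preTreg, and 40.5 and 22.8 in Treg. Its log2 difference was 1.92, and both KO Treg libraries were above both FL ones. It was followed by a second Hopx peak at chr5:77113921-77114170 (1.14), a peak in Tmprss6 (1.03), one in Jazf1 (1.02) and the one nearest to Emsy (0.97). The Jazf1 peak (chr6:53038271-53038502), in the gene of a zinc finger protein, had 16.6 and 11.9 in preTreg of KO against 24.8 and 30.9 in FL. Its Treg values were 144 and 111 in KO against 50.6 and 73.8 in FL, so the order of the genotypes differed between the 2 stages. The lowest differences were at Aak1 (-0.95), Gfra1 (-0.94), a peak without a gene within 50 kb on chromosome 10 (-0.87), Bod1l (-0.80) and Ube2v1 (-0.79). The Bod1l peak (chr5:41788887-41789132) had 62.0 and 72.0 in Treg of KO against 123 and 112 in FL, and 36.9 and 37.7 in preTreg of KO against 41.1 and 28.2 in FL. Its first step was called in KO, by a log2 difference of 1.68 ± 0.37 (SE, adjusted p = 0.000682) over mSP, and its Treg step was a log2 difference of 0.82 ± 0.37 (SE, adjusted p = 0.16).

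Values near the limits of the rule show how narrow they are. At the Treg level of 30, the nearest peaks inside stood at 30.1, 30.4 (Tmprss6) and 30.4 (Akap13), and the nearest outside at 29.4, 29.2 (Gprin3) and 29.2. For the Treg step the nearest inside were 2.00-fold (Prr5l), 2.00-fold (Havcr2) and 2.01-fold, and the nearest outside 1.9997-fold (Gprin3), 1.995-fold (Elk3) and 1.99-fold (Ppp1r16b). For the first step they were 2.01-fold, 2.01-fold (St3gal1) and 2.02-fold (Peli1) inside, and 1.998-fold (Zbtb10), 1.99-fold (Bach2) and 1.99-fold (Dapl1) outside. The Bach2 peak, at a gene of a repressor of effector differentiation, averaged 112 in Treg and 41.5 in preTreg of KO, and 118 in Treg and 41.3 in preTreg of FL.

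By position, the stepwise peaks lay mostly away from gene ends. Of the 365, 230 overlapped a protein-coding gene body (63.0%, against 68.3% of all peaks), 84 lay within 50 kb of one, and 51 had none within 50 kb. Within 1 kb of either end of a protein-coding gene there were 20 stepwise peaks (5.48%), against 37.3% of all peaks. The median distance to such an end was 23126 bases, against 3608 over all peaks. The Treg-step set (4088 peaks on FL columns) and the precursor-step set (2331) had 7.36% and 14.5% within 1 kb. The stepwise peaks were wider than all peaks, with a median of 219 bases against 170. The median was 207 in the precursor-step set, 182 in the Treg-step set and 212 in the peaks chosen in KO. Another stepwise peak lay within 50 kb of 139 of them, or 38.1%. In the larger sets another peak of the same set lay that near for 68.9% of the Treg-step set, 58.5% of the precursor-step set and 98.1% of all peaks. Of the 232 genes with at least 1 stepwise peak, 185 had only 1, and 23 had 3 or more, with 81 peaks in all. These differences in position were not tested.

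**Figure D5:**
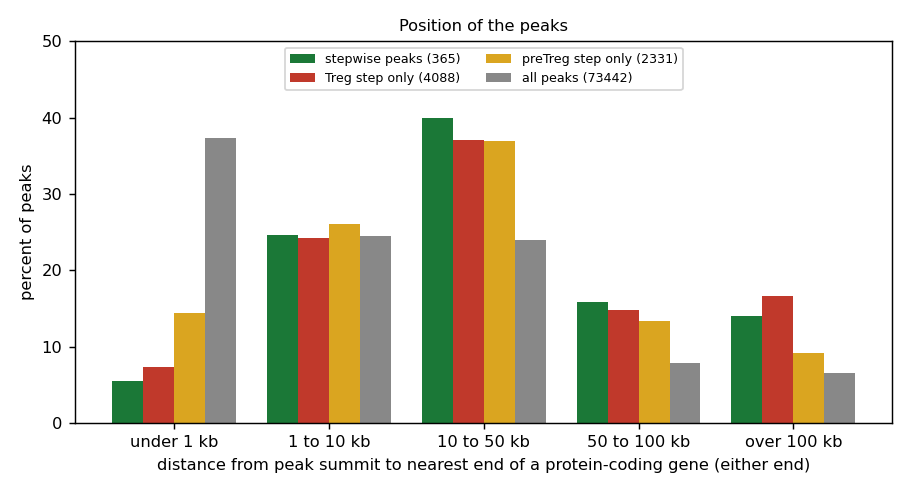
Share of peaks (percent) by distance from the peak summit to the nearest end of a protein-coding gene. Sets are stepwise peaks, the Treg-step set (Treg step only) and precursor-step set (preTreg step only) on FL columns, and all peaks. Under 1 kb lay 5.48% of stepwise peaks and 37.3% of all peaks.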

How the data were processed

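Open chromatin was measured by ATAC-seq in 16 libraries from 4 mice. Per the submitters' processing notes, the tools were Trimmomatic 0.36, STAR 2.5.4b, SAMtools 1.10, Genrich, R 3.6.3 and DESeq2 1.24.0, with build mm10. The sources used here do not say whether reads were shifted for the transposase or whether peaks were called on pooled libraries. The values deposited by the authors are a signal per peak and library, and dividing a column by its smallest step gave whole reads within 0.0001 for 100% of values. They are therefore reads per peak over a size factor, with 5585827 to 11437401 reads in peaks per library. In Treg_FL replicate 1 that step was 1.01, close to 1. Its recovered reads were used only for its depth and reads per peak, and the count tests used the 8 KO libraries.

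Stepwise peaks were found on the mean of the FL columns and tested in the 8 KO libraries with limma 3.58.1 (R 4.3.3) on log2(value + 1), with trend and robust settings, over peaks averaging 10 or more. Benjamini-Hochberg adjustment ran over 73140 peaks within each contrast, and calls were made at 0.05. edgeR 4.0.16 and DESeq2 1.42.0 on the recovered reads, other scalings, pseudocounts and filters, a block for mouse, and leaving out each library were alternatives. The code was tested on simulated data. Libraries of 1 replicate number come from the same mouse. The deviations from group means of same-numbered KO libraries correlated between -0.01 and 0.09 across peaks. With 2 mice a genotype, p-values measure the spread between these libraries.

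A peak was assigned to the shortest protein-coding gene body it overlapped in RefSeq (GRCm38.p6), otherwise to the nearest within 50 kb, with no claim that it controls that gene. The peaks named were the 10 highest in FL Treg, the 5 highest in FL preTreg, those of the gene lists, those of the 8 genes with most stepwise peaks (6 genes had 4 or more, and Abhd6 and Ccr6 came first by alphabet of the 17 genes with 3), the 5 highest and lowest KO minus FL differences in Treg, those nearest to the limits of the rule, and the highest called at no contrast. Peaks named outside this rule are marked in the text. The members and lists were chosen with earlier results of these data known. Motifs were searched in RefSeq promoter windows, peak parts included, and sequence under peaks outside such windows was not analysed here.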

Additional observations from a re-analysis of the deposited data

How the results depend on the processing

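Calls in KO rested most on having both libraries of a group. Leaving out each KO library in turn gave 108 to 295 stepwise peaks called at the Treg step, 191 to 273 over mSP, 125 to 227 over smSP and 45 to 149 at all 3 contrasts. A lone library was then assumed to vary like the other groups. With the descriptions used for KO replicate 2, 75 stepwise peaks and 194 of all peaks tested were called at all 3 contrasts. The replicate block for mouse gave 264 at the Treg step, 266 over mSP, 207 over smSP and 138 at all 3, each within 1.5 times the count without it. Of all 73140 peaks that block gave 4524, 14417, 9983 and 527. No paired analysis was possible for KO minus FL because each mouse has 1 genotype.

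The size of the set depends on its limits. A fold of 1.5 gave 930 peaks and a fold of 3 gave 65, a Treg level of 60 gave 238, and a pseudocount of 5 gave 219. Of these, 615, 17 and 114 also met the rule on KO columns at a fold of 1.5, a fold of 3 and a pseudocount of 5. With 1 FL mouse left out 363 or 336 peaks met the rule, and 257 or 239 of them were among the 365. KO minus FL in Treg was between 0.02 and 0.24 when 1 Treg library was left out, lowest without Treg_KO replicate 1. In preTreg it was -0.02, smaller than its spread between replicates of 0.052, so it has no settled direction. In mSP it was 0.19 at a fold of 1.5, 0.41 at a fold of 3, and 0.38 to 0.40 without 1 FL mouse. In smSP it was 0.75 at a fold of 3, and in preTreg it was -0.073 with a pseudocount of 5 in the rule. Over the peaks chosen in KO, smSP had 0.18, mSP 0.12, preTreg -0.15 and Treg 0.44. The cause of these shifts was not tested. SP levels of 5 to 8 reads a peak limit the precision of the first step.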
